A study of Mus musculus with 7 samples.

Results

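The 10 genes described here encode ligands, receptors and an inhibitor of the ErbB signalling system: the ligands Egf, Areg, Ereg, Btc, Hbegf and Tgfa, the receptors Egfr, Erbb2 and Erbb3, and the feedback inhibitor Errfi1. They were chosen by name, with earlier results of these data known. Every probe set that the array's annotation pairs with exactly 1 symbol, equal to a member, was taken. That gave 19 of the 45037 probe sets tested, for 9 of the 10 genes; Areg was not analysed here. Egfr had 6 probe sets, Tgfa 3, and Btc, Hbegf and Erbb3 2 each, while Egf, Ereg, Erbb2 and Errfi1 had 1.

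ErbB receptors are receptor tyrosine kinases that pair with each other when a ligand of the EGF family binds. The ligands are made as membrane-anchored precursors and cut free by proteases of the ADAM family, and the activated receptors signal through the RAS-ERK and PI3K-AKT cascades. In the gut epithelium this system drives proliferation of crypt stem and progenitor cells, and it is held in check by inhibitors such as ERRFI1 (MIG6), which binds the kinase domain, and LRIG1. ERBB2 binds no known ligand and acts as a partner receptor. ERBB3 has a very weak kinase and depends on its partners.

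The 7 Affymetrix arrays profiled sorted tumour cells from the colon of mice. All animals carried a Tomato reporter allele of Mex3a, the tamoxifen-inducible Villin CreERT2 transgene and 1 floxed Apc allele (APC fl/+). The second Mex3a allele was wild type in the group labelled WT (Tom/+, 4 arrays) and floxed in the group labelled KO (tom/flox, 3 arrays), so the WT cells had 1 wild-type copy of Mex3a beside the reporter allele. Both groups received 4 doses of tamoxifen and then 2% dextran sulfate sodium (DSS, a polymer that injures the colon lining) for 5 days, and adenomas were taken 2 months after DSS ended. Villin drives Cre through the whole gut epithelium, and only cells positive for Epcam and Tomato, that is with an active Mex3a promoter, were sorted. Age, sex and pooling of animals are not given in the labels, and nothing in them ties arrays to separate mice. The p-values therefore speak of the spread between the arrays at hand, which may be technical. The comparison asks how cells with an active Mex3a promoter differ between the WT and KO genotypes. The labels call the second group a knockout, but do not say whether the Tomato allele still makes Mex3a.

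Levels are log2 values, which the authors computed by robust multi-array average (RMA). Probe sets bind with different strength, so a level is compared between arrays and never between probe sets. Differences are KO minus WT on the log2 scale, from limma with scan batch as a covariate, each with its standard error (SE); group means are given with SD, n = 4 for WT and n = 3 for KO. Adjusted p-values (Benjamini-Hochberg) run over all 45037 probe sets. The brighter Mex3a probe set checked the labels: the log2 mean of the WT arrays was 7.33 ± 0.22 (SD, n = 4) and that of the KO arrays 6.18 ± 0.11 (SD, n = 3), without overlap, with a difference of -1.13 (SE 0.13, limma adjusted p = 0.334). The dimmer one read 6.61 ± 0.30 and 5.97 ± 0.18, also without overlap, a smaller difference of -0.60 (SE 0.15, limma adjusted p = 0.483) that was -0.43 without KO replicate 1. The array medians lay between 5.96 and 6.00. In the 3′ minus 5′ reading of actin, a measure of RNA quality, KO replicate 1 stood apart at -0.301 against -0.515 to -0.429 on the other arrays. The number of arrays limits the precision.

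Markers of epithelium and of other cell types were both read on the arrays. Ranks of different probe sets do not measure purity, so the counts below are a description. None of the 15 epithelial markers fell among the lowest 25% of probe sets by mean level; the tight junction gene Cldn7 had a WT mean of 12.30 ± 0.08 (SD, n = 4) and a KO mean of 12.22 ± 0.06 (SD, n = 3), and the keratin gene Krt19 11.94 ± 0.16 and 11.96 ± 0.22. Of 20 leukocyte markers 6 lay among the lowest 25%, the pan-leukocyte gene Ptprc among them. This is near the 25% of all probe sets that lie there by definition. The mean level of the list ran from 5.67 to 5.80 in WT and from 5.72 to 5.78 in KO. Its 2 brightest genes, Cd68 and Lcp1, exceeded 69.9% and 64.3% of all probe sets. Of 14 fibroblast and muscle markers 3 lay among the lowest 25%, and the list mean ran from 6.26 to 6.74 in WT and from 6.20 to 6.82 in KO. Vim, the intermediate filament gene of mesenchymal cells on that list, was read brightly (above 99.0% of all probe sets), at 11.62, 11.62, 11.38 and 11.37 in WT and 11.20, 11.10 and 11.24 in KO. Its KO arrays lay below its WT arrays (difference -0.29, SE 0.06; limma adjusted p = 0.457, exact permutation p = 0.0286; -0.17 with the mean of its probe sets), and its part in the member differences was not tested. Acta2, an actin of muscle cells, exceeded 81.0% of all probe sets. Of 12 endothelial and enteric nervous system markers 1 lay there, with list means of 5.68 to 5.79 in WT and 5.63 to 5.69 in KO. Since these are bulk samples, fewer cells of a type and less RNA per cell cannot be told apart.

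The stretches just upstream of the annotated gene start are shown for Tgfa, whose brightest probe set separated the genotypes, for the receptors Egfr and Erbb2, and for Egf, a ligand among the dimmest probe sets. They come from RefSeq (GRCm38.p6), whose promoter table held 7 of the 10 members, and are written 5′ to 3′ on the gene's strand. Capitals mark a match, on either strand, to the GC box GGGCGG, the TATA box TATAAA or the CCAAT box. The Tgfa stretch is the 66 bases that precede the earliest annotated start; the others are 150 bases.
Tgfa, chr6:86194972-86195037, plus strand: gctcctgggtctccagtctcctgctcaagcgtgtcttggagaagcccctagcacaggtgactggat
Egfr, chr11:16752053-16752202, plus strand: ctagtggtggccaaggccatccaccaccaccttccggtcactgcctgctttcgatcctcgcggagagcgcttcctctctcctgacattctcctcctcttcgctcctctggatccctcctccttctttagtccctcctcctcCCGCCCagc
Erbb2, chr11:98412334-98412483, plus strand: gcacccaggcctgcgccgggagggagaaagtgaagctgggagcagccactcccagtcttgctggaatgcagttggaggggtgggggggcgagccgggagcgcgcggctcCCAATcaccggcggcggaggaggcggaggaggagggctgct
Egf, chr3:129755323-129755472, minus strand: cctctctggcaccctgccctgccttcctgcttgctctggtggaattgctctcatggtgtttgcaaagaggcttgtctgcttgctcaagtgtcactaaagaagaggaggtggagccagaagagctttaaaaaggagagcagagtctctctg

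The stretches differed in base composition. G and C made up 71.3% of the Erbb2 stretch, 61.3% of Egfr and 52.0% of Egf, against a median of 54.0% over 27025 promoters of the same length. For the 66 bases of Tgfa the share was 59.1%, against a median of 56.1%. The windows of all promoters end at the start listed in the promoter table. The Tgfa stretch ends further upstream, at the earliest annotated gene start, so the positions compared are not alike. Egfr had 1 GC box, which 29.0% of all promoters of that length held, and Erbb2 had 1 CCAAT box, which 25.3% held. None of the 4 stretches held TATAAA, a motif present in 8.08% of the longer and 4.53% of the shorter windows.

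No member passed the test between KO and WT adenoma cells, and only Tgfa, on 1 of its 3 probe sets, had KO arrays that did not overlap the WT arrays. Over the 19 member probe sets, limma called 0 at adjusted p under 0.05, where 0.0% of all 45037 probe sets were called. At an unadjusted p under 0.05 there were 2 member probe sets, both for Tgfa and both lower in KO. The share over all probe sets was 9.39% (5.58% higher and 3.81% lower in KO). The member count was 1 without WT replicate 2, KO replicate 1, KO replicate 2 or KO replicate 3. It was 3 without WT replicate 1, when both Btc probe sets, higher in KO, had such a p. The genotypes were apart, with no overlap between arrays, on 1 member probe set (2 without KO replicate 1, WT replicate 1 or KO replicate 3, and 3 without KO replicate 2), beside 4.96% of all (2.16% higher and 2.8% lower in KO). Of the member differences 10 were positive and 9 negative, with a median of 0.00, against -0.02 over all probe sets. As shares of the members these counts are 10.5% and 5.26%, near the background, so they are not a result about these genes.

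**Figure D1:**
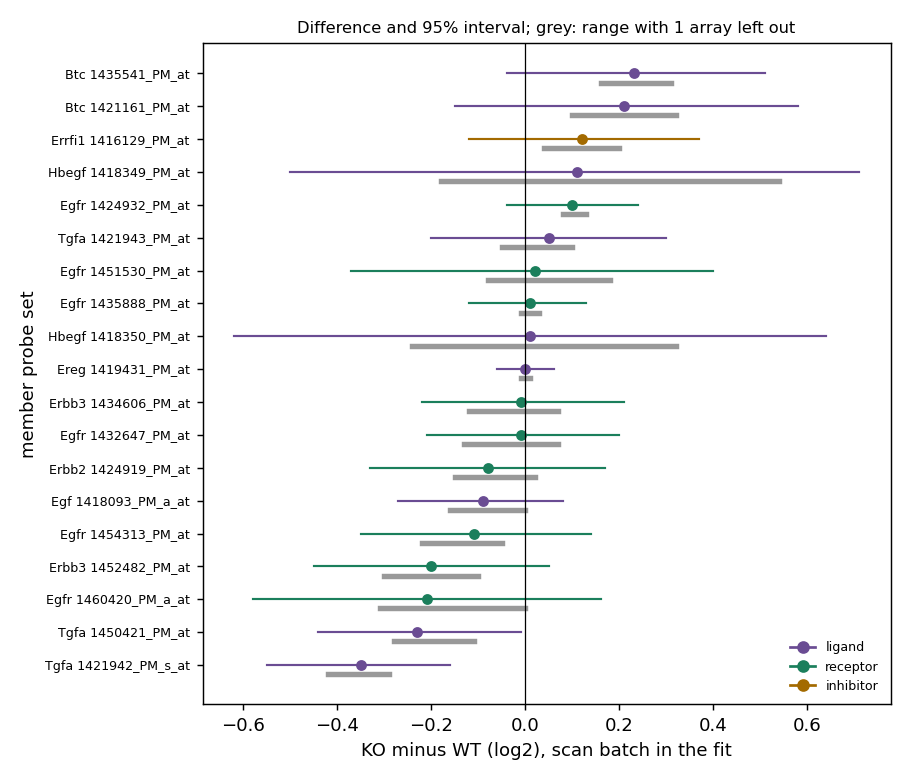
Points give the KO minus WT log2 difference of each of the 19 member probe sets, horizontal lines its 95% interval, and grey bars the range of the difference when 1 array is left out; colours mark ligands, receptors and the inhibitor. The differences run from -0.35 (Tgfa, lowest row) to 0.23 (Btc, top row), and only the intervals of 2 Tgfa probe sets lie wholly on one side of 0.

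The intervals describe precision over these arrays, whose spread may be technical. For all 19 member probe sets the 95% interval lay within 1 log2 unit on either side of 0. For 13 of the 19 it lay within 0.5. Without the dim probe sets of Egf and Ereg, 11 of 17 lay within 0.5 (64.7%). Over all probe sets 99.2% lay within 1 unit and 88.7% within 0.5. The median SE was 0.10 for the 9 receptor probe sets, 6 of them for Egfr, and 0.11 for the 9 ligand probe sets. The largest SE among members was 0.27, for Hbegf.

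Among the ligands, transforming growth factor alpha (Tgfa), an autocrine growth factor of gut epithelium, had the largest difference. On its brightest probe set, 1421942_PM_s_at, the WT arrays read 10.36, 10.16, 10.26 and 10.38, against 9.999, 9.99 and 9.81. on the KO arrays Every KO array lay below every WT array, and the nearest arrays of the 2 groups were 0.16 apart. The means were 10.29 ± 0.10 (SD, n = 4) and 9.93 ± 0.11 (SD, n = 3), a difference of -0.35 (SE 0.09; 95% interval -0.55 to -0.16), or 1.28-fold lower in KO. The limma p was 0.0035 and the adjusted p 0.471, which does not pass. The two-sided exact permutation p over the 35 splits of the arrays was 0.0286, the smallest that test can give; with arrays exchanged only within scan batch (18 arrangements, smallest p 0.0556) the exact p was 0.111. The difference was -0.26 within scan batch 1, with its 1 KO array, and -0.42 within scan batch 2. The suffix "s" in the probe set's name marks probes that can match transcripts of more than 1 gene, so this value is less certain as to gene.

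The other Tgfa probe sets gave a weaker and an opposite reading. On 1450421_PM_at the WT arrays read 7.97, 7.99, 8.04 and 8.14, against 7.58, 7.98 and 7.97. on the KO arrays KO replicate 1 alone stood clearly below the WT arrays there, and the other KO arrays lay at the lower edge of the WT range. The difference was -0.23 (SE 0.09; limma adjusted p = 0.522, exact permutation p = 0.0571), and -0.11 without KO replicate 1. On 1421943_PM_at the WT arrays read 8.21, 7.91, 7.91 and 7.83, against 8.26, 7.77 and 7.87 on the KO arrays, with both highest values in scan batch 1. Here the genotypes overlapped fully, at a difference of 0.05 (SE 0.11; adjusted p = 0.896 in limma). Whether the probe sets themselves disagree was tested on the difference between 2 probe sets within each array. For 1421942_PM_s_at minus 1421943_PM_at the WT arrays gave 2.32 ± 0.17 (SD, n = 4) and the KO arrays 1.97 ± 0.24 (SD, n = 3). The exact permutation p was 0.0857, and 0.257 after adjustment over the 3 pairs of probe sets. With arrays exchanged only within scan batch the exact permutation p was 0.0556, the smallest that test can give. The smallest p over the 35 splits is 0.0286, so 1 pair alone could not pass after adjustment. The test therefore could not decide whether the probe sets changed unequally. With the mean of its probe sets as the value of the gene, Tgfa differed by -0.18 (limma, adjusted p = 0.442).

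Betacellulin (Btc), a ligand of EGFR and ERBB4, was highest on 1 WT and 1 KO array of the same scan batch. On the brighter probe set, 1421161_PM_at, WT arrays read 8.61, 7.96, 7.80 and 7.98 and KO arrays 8.54, 8.17 and 7.98. On 1435541_PM_at they read 6.95, 6.52, 6.40 and 6.16 in WT and 6.94, 6.56 and 6.51 in KO. WT replicate 1 and KO replicate 1, both of scan batch 1, were the highest arrays on both probe sets. In the fit, scan batch 2 minus batch 1 was -0.42 and -0.44 on the log2 scale (unadjusted p = 0.0277 and 0.00684, adjusted p = 0.368 and 0.291 in limma). With scan batch in the fit, KO stood at 0.21 (SE 0.16) and 0.23 (SE 0.12) relative to WT, with intervals of -0.15 to 0.58 and -0.04 to 0.51 and adjusted p = 0.672 and 0.575 (limma). Both estimates stayed positive in every alternative tried, without passing in any. That of 1421161_PM_at shrank from 0.21 to 0.099 without WT replicate 2. It rose to 0.317 without WT replicate 1 and to 0.407 with the 3′ minus 5′ reading of Gapdh as a further covariate. For 1435541_PM_at the estimate was 0.165 without WT replicate 2 and 0.309 without WT replicate 1.

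Other members also differed between the scan batches before adjustment. Of the 19 member probe sets, 5 had an unadjusted p under 0.05 for scan batch (26.3%), beside 12.2% of all probe sets, and 0 passed adjustment. The 5 were both Btc probe sets, the Tgfa probe sets 1421943_PM_at (-0.29) and 1450421_PM_at (0.22), and Egf (0.19). Batch effects thus pointed in opposite directions on 2 probe sets of the same gene.

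**Figure D2:**
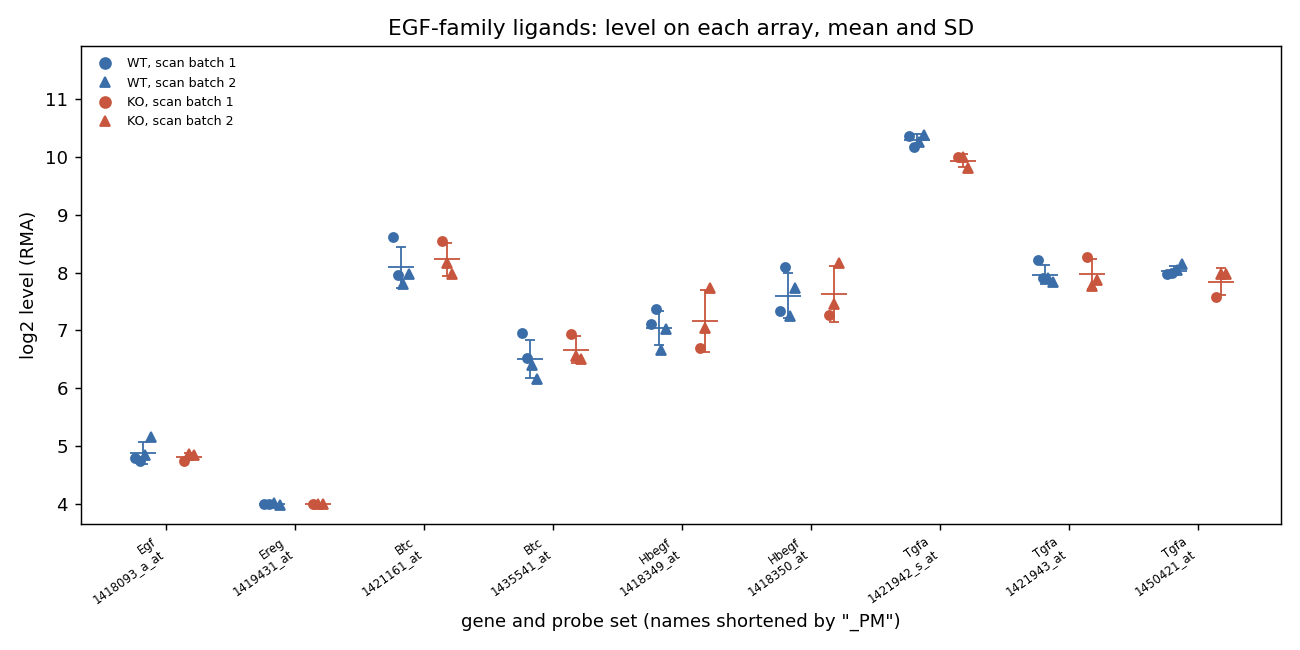
Log2 level of each ligand probe set on every array (vertical axis), with genes along the horizontal axis, blue for WT and red for KO, circles for scan batch 1 and triangles for scan batch 2; bars give the group mean and SD. The red points lie wholly below the blue ones on Tgfa 1421942_PM_s_at, and on both Btc probe sets the circles of WT replicate 1 and KO replicate 1 are the highest points.

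Heparin-binding EGF-like growth factor (Hbegf), an immediate early gene whose precursor is also shed by ADAM proteases, varied most between arrays. On 1418350_PM_at the WT arrays read 7.33, 8.09, 7.25 and 7.73, against 7.26, 7.46 and 8.17 on the KO arrays; on 1418349_PM_at they read 7.11, 7.37, 6.66 and 7.03 in WT and 6.69, 7.04 and 7.74 in KO. KO replicate 3 was the highest and WT replicate 2 the next highest array on both probe sets. Their SDs over the 7 arrays, 0.39 and 0.38, exceeded those of 98.3% and 98.0% of all probe sets. The differences were 0.01 (SE 0.27) and 0.11 (SE 0.26; adjusted p = 0.991 and 0.911 in limma). Within scan batch 1 KO was lower, by -0.45 and -0.55, and within scan batch 2 higher, by 0.32 and 0.54, so the sign rests on the batch. The estimates turned to -0.24 and -0.18 without KO replicate 3 and rose to 0.32 and 0.54 without KO replicate 1, an omission after which only scan batch 2 informs the estimate.

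Errfi1, the feedback inhibitor of the receptors' kinase domain, was highest on the same 2 arrays. Its WT arrays read 9.49, 9.74, 9.47 and 9.62 and its KO arrays 9.62, 9.62 and 9.88, so that KO replicate 3 and WT replicate 2 led here too. The genotypes overlapped, at 9.58 ± 0.13 (SD, n = 4) and 9.70 ± 0.15 (SD, n = 3), with a difference of 0.12 (SE 0.11; 95% interval -0.12 to 0.37, limma adjusted p = 0.715). The Errfi1 difference was 0.037 without KO replicate 3 and 0.068 without WT replicate 3, and leaving out KO replicate 1 gave 0.21. The 3′ minus 5′ reading of Gapdh, likewise a measure of RNA quality, was lowest for KO replicate 3 (-0.239), KO replicate 2 (-0.213) and WT replicate 2 (-0.209), against -0.154 to -0.121 on the other arrays. With that difference as a further covariate, Errfi1 stood at -0.02 and Hbegf at -0.45 and -0.34. Its part in these readings was not tested.

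Ereg and Egf were read by dim probe sets. Epiregulin (Ereg), a ligand of EGFR and ERBB4, read 4.01, 4.01, 4.03 and 3.98 in WT and 4.01 on all 3 KO arrays, and its mean level stood at the 2.17 percentile of all probe sets. Only 3 distinct values occurred over the 7 arrays, so its SE of 0.03 describes the flat reading of this probe set and not how well the gene was measured. Epidermal growth factor itself (Egf) read 4.79, 4.74, 4.85 and 5.16 in WT and 4.75, 4.86 and 4.85 in KO. WT replicate 4 was highest, and the others lay close together. The difference for Egf was -0.09 (SE 0.08; adjusted p = 0.697 in limma) and shrank to -0.0046 without WT replicate 4; leaving out WT replicate 3 gave -0.16 and leaving out KO replicate 1 gave -0.15. Both probe sets were among the lowest 25% by mean level, below 4.87, which the other 17 member probe sets exceeded. Egf was only just among them, at the 24.7 percentile.

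Among the receptors, Egfr, the receptor of all 6 ligands named above, showed no difference that passed on any of its 6 probe sets. On 1460420_PM_a_at, the brightest, the WT arrays read 8.41, 7.92, 8.30 and 8.11, against 7.65, 8.11 and 8.29. on the KO arrays KO replicate 1 was the lowest array, and the other KO arrays lay inside the WT range. The difference of -0.21 (SE 0.16; limma adjusted p = 0.682) was -0.0041 without KO replicate 1, when only scan batch 2 informs the estimate, and -0.092 without WT replicate 1. On 1454313_PM_at the WT arrays read 7.94, 7.70, 8.07 and 8.17, against 7.88, 7.85 and 7.96 on the KO arrays, all inside the WT range (difference -0.11, SE 0.10; -0.22 to -0.05 with 1 array left out). On 1451530_PM_at WT replicate 1 stood at 8.18, above the other WT arrays at 7.56, 7.70 and 7.55 and the KO arrays at 7.64, 7.69 and 7.92 (difference 0.02, SE 0.17).

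The other Egfr probe sets were dimmer. Their levels over all arrays ran from 5.66 to 5.86 on 1424932_PM_at, from 5.34 to 5.81 on 1432647_PM_at and from 5.27 to 5.40 on 1435888_PM_at, with differences of 0.10 (SE 0.06), -0.01 (SE 0.09) and 0.01 (SE 0.05). The adjusted p-values of the 6 Egfr probe sets in limma lay between 0.626 and 0.988. Array order also differed between the probe sets of Egfr. WT replicate 1 was highest on 1460420_PM_a_at and 1451530_PM_at, WT replicate 4 on 1454313_PM_at and 1432647_PM_at, and KO replicate 1 on 1424932_PM_at and 1435888_PM_at.

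Erbb2 and Erbb3, the partner receptors, had in common that WT replicate 3 was their highest array. Erbb2 read 8.06, 7.99, 8.39 and 8.05 in WT and 8.05, 8.11 and 8.02 in KO. Apart from WT replicate 3, all arrays lay between 7.99 and 8.11. The difference for Erbb2 was -0.08 (SE 0.11; 95% interval -0.33 to 0.17, limma adjusted p = 0.814), and it was 0.02 without WT replicate 3, -0.04 without KO replicate 3 and -0.15 without KO replicate 1 or WT replicate 4. The brighter Erbb3 probe set, 1434606_PM_at, read 9.33, 9.33, 9.53 and 9.33 in WT and 9.50, 9.32 and 9.29 in KO. WT replicate 3 and KO replicate 1 stood above the rest, which lay between 9.29 and 9.33. The difference was -0.01 (SE 0.09; limma adjusted p = 0.988), and the interval of -0.22 to 0.21 was among the narrower ones of the members.

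The second Erbb3 probe set separated WT replicate 3 further. On 1452482_PM_at the WT arrays read 8.79, 8.80, 9.17 and 8.77, against 8.56, 8.83 and 8.76. on the KO arrays KO replicate 1 was lowest here although it was second highest on the brighter probe set. The difference was -0.20 (SE 0.11; limma adjusted p = 0.596), and -0.10 without WT replicate 3 and -0.30 without WT replicate 4. The mean of the fibroblast and muscle markers, relative to all arrays, was 0.32 in WT replicate 3 and 0.40 in KO replicate 2, against -0.22 to -0.09 on the other arrays; its part in the receptor readings was not tested.

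**Figure D3:**
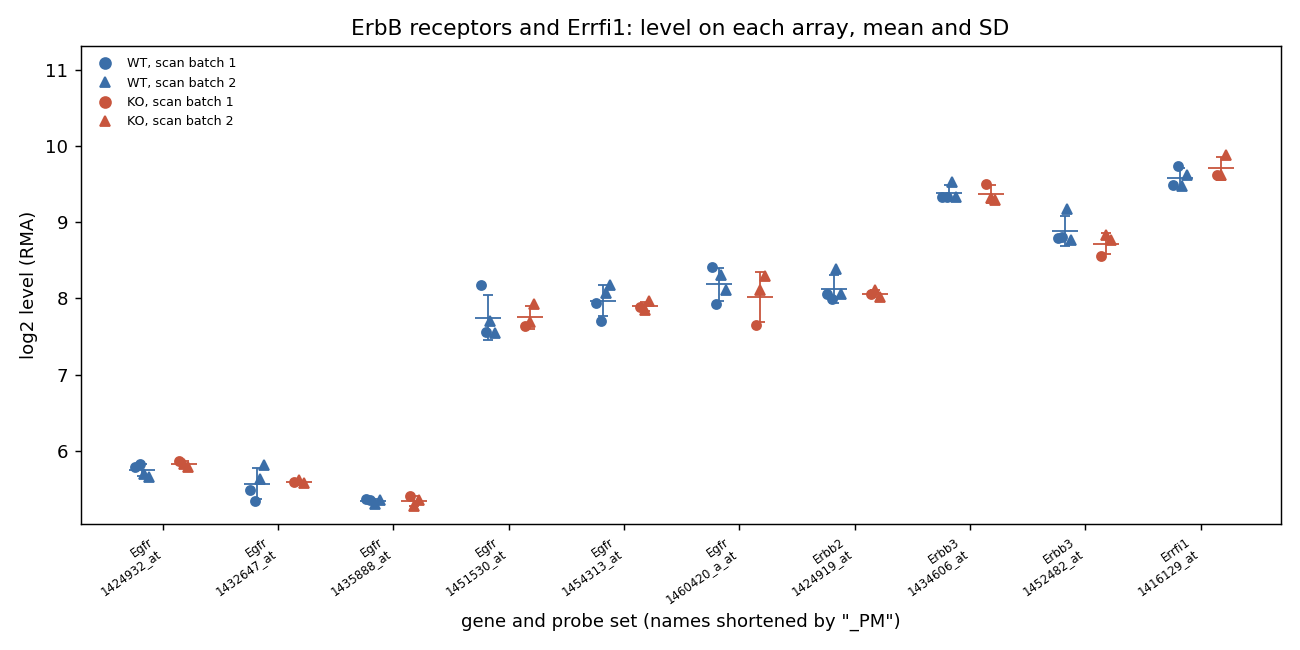
Log2 level of each receptor probe set and of Errfi1 on every array (vertical axis), genes along the horizontal axis, blue for WT and red for KO, circles for scan batch 1 and triangles for scan batch 2; bars give the group mean and SD. A single blue triangle, WT replicate 3, stands above the other points on Erbb2 and on both Erbb3 probe sets, and a red circle, KO replicate 1, lies lowest on Egfr 1460420_PM_a_at.

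The other genes of the system were counted on fixed lists, with 1 probe set per gene, the brightest. The lists were chosen with earlier results of these data known, so their counts are a description. Over all 17097 genes 0.0% passed at adjusted p under 0.05, and 9.61% had an unadjusted p under 0.05 (5.78% higher and 3.83% lower in KO). The arrays of the genotypes did not overlap for 5.13% of genes (2.18% higher and 2.95% lower in KO), and the median difference was -0.02. The remaining ligands and receptor of the family (Epgn, Nrg1, Nrg2, Nrg3, Nrg4 and Erbb4) gave 0 of 6 at either threshold (1 at the unadjusted one without KO replicate 1 or WT replicate 1) and a median of -0.06. Erbb4, the fourth receptor, read from 4.60 to 4.80 in WT and from 4.51 to 4.62 in KO (difference -0.11, SE 0.06), and it lay among the lowest 25% by mean level, as did Nrg1 and Nrg3. Nrg3 differed by -0.14 (SE 0.07), Nrg2 by -0.08 (SE 0.09), Nrg1 by -0.04 (SE 0.04), Nrg4 by -0.01 (SE 0.07) and the ligand Epgn by 0.04 (SE 0.06). The neuregulins are the ligands of ERBB3 and ERBB4.

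Genes for shedding and maturing the ligands gave 2 of 12 at an unadjusted p under 0.05 and 0 after adjustment (limma), with a median of -0.05. Without WT replicate 1, WT replicate 3, KO replicate 2 or KO replicate 3 the count was 1. Adam9, a membrane metalloprotease, read 6.61, 6.52, 5.88 and 6.10 in WT and 6.90, 6.65 and 6.98 in KO. All KO arrays lay above all WT arrays, and the difference was 0.63 (SE 0.13; limma p = 0.00171, adjusted p = 0.451; exact permutation p = 0.0571; 0.34 within scan batch 1). Adam12, a related protease, went the other way at -0.46 (SE 0.16) with KO replicate 1 inside the WT range. Its limma adjusted p was 0.51 and its exact permutation p 0.114. The Adam12 difference was -0.18 within scan batch 1, -0.19 with the Gapdh difference as covariate and -0.28 with the mean of its probe sets. Rhbdf2, the inactive rhomboid that escorts ADAM17 to the cell surface, read 8.41, 8.30, 8.26 and 8.26 in WT and 8.18, 8.01 and 8.14 in KO. Its KO arrays lay below its WT arrays, at -0.18 (SE 0.08). The limma p was 0.0573 before and 0.54 after adjustment. The exact permutation p was 0.0286, the smallest that test can give.

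Genes of receptor traffic and turnover gave 8 of 32 at an unadjusted p under 0.05, 6 higher and 2 lower in KO, and 0 after adjustment (limma), with a median of 0.02. Of the 32 differences 19 were positive and 13 negative, beside 6949 and 10148 of all 17097 genes. The 3 of smallest p were higher in KO. Stam, which sorts ubiquitinated receptors, differed by 0.28 (SE 0.07, limma adjusted p = 0.472, exact permutation p = 0.171). Rab5a, the GTPase of early endosomes, differed by 0.32 (SE 0.08, limma adjusted p = 0.483, exact permutation p = 0.171). For Eps15, an adaptor of clathrin-coated pits, the difference was 0.32 (SE 0.11, limma adjusted p = 0.50, exact permutation p = 0.114). Within scan batch 1 Rab5a differed by 0.17 and Eps15 by 0.13; with the mean of its probe sets Eps15 differed by 0.13, and with the Gapdh difference by 0.19. For all 3 the groups overlapped. The WT arrays of scan batch 1 lay near KO arrays for Rab5a and Eps15. For Stam they read 5.98 and 5.95, near the KO arrays of scan batch 2 at 6.01 and 5.93. KO replicate 1, of their own batch, read 6.25, and Stam differed by 0.28 within each scan batch. The count of the list was 2 without the term for scan batch and 4 with the Gapdh difference as covariate. It was 2 without WT replicate 3, 3 without KO replicate 2, and 4 without each of WT replicate 1, WT replicate 4 and KO replicate 3.

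Genes that relay the signal below the receptors gave 11 of 32 (34.4%) at an unadjusted p under 0.05, 5 higher and 6 lower in KO, and 0 after adjustment (limma); the median was -0.04. Akt2 and Akt1, kinases of the PI3K branch, were lower in KO without overlap. Akt1 read 10.46, 10.53, 10.82 and 10.47 in WT and 10.07, 10.37 and 10.37 in KO. The difference for Akt1 was -0.34 (SE 0.09; limma adjusted p = 0.483, exact permutation p = 0.0286), and -0.074 with the mean of its probe sets. Akt2 differed by -0.24 (SE 0.06, limma adjusted p = 0.483, exact permutation p = 0.0571). Pik3ca, the catalytic subunit of PI3K above them, was higher, at 8.37, 8.38 and 8.21 in KO against 8.17, 8.17, 7.75 and 7.89 in WT. The Pik3ca difference was 0.37 (SE 0.10, limma adjusted p = 0.483, exact permutation p = 0.0857). It was 0.22 with the mean of its probe sets and 0.20 within scan batch 1. Estimates within 1 branch thus had opposite signs. The count of this list was 4 without KO replicate 2, 5 without WT replicate 3 or KO replicate 3 and 6 without WT replicate 4. It was 4 with the Gapdh difference as covariate, 4 with the mean of each gene's probe sets, 7 without the term for scan batch and 17 with array weights.

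Targets and feedback genes of ERK signalling gave 8 of 34 (23.5%) at an unadjusted p under 0.05, 3 higher and 5 lower in KO, and 0 after adjustment (limma), with a median of -0.03. Spred2, an inhibitor of RAS-ERK signalling, was lower in KO without overlap, at 9.77, 9.71, 9.94 and 9.85 in WT and 9.40, 9.70 and 9.66 in KO. The Spred2 difference was -0.26 (SE 0.07, limma adjusted p = 0.483, exact permutation p = 0.0571). The gap between the nearest arrays was 0.011, and with the mean of its probe sets Spred2 differed by -0.014. The stress-induced factor Atf3 differed by -0.54 (SE 0.18, limma adjusted p = 0.50, exact permutation p = 0.114). The early gene Klf10 differed by 0.34 (SE 0.12, limma adjusted p = 0.51, exact permutation p = 0.0857). Both genes had overlapping groups, and with the Gapdh difference as covariate Klf10 differed by 0.20. The mean of this list, relative to all arrays, was highest in WT replicate 1 at 0.12 and lowest in KO replicate 1 at -0.11, and it was 0.06 in KO replicate 3 and -0.03 in WT replicate 2, the arrays in which Hbegf and Errfi1 were highest. The count was 2 without WT replicate 4 or KO replicate 2, 4 without WT replicate 3, 5 without KO replicate 1, and 3 with the Gapdh difference as covariate.

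**Figure D4:**
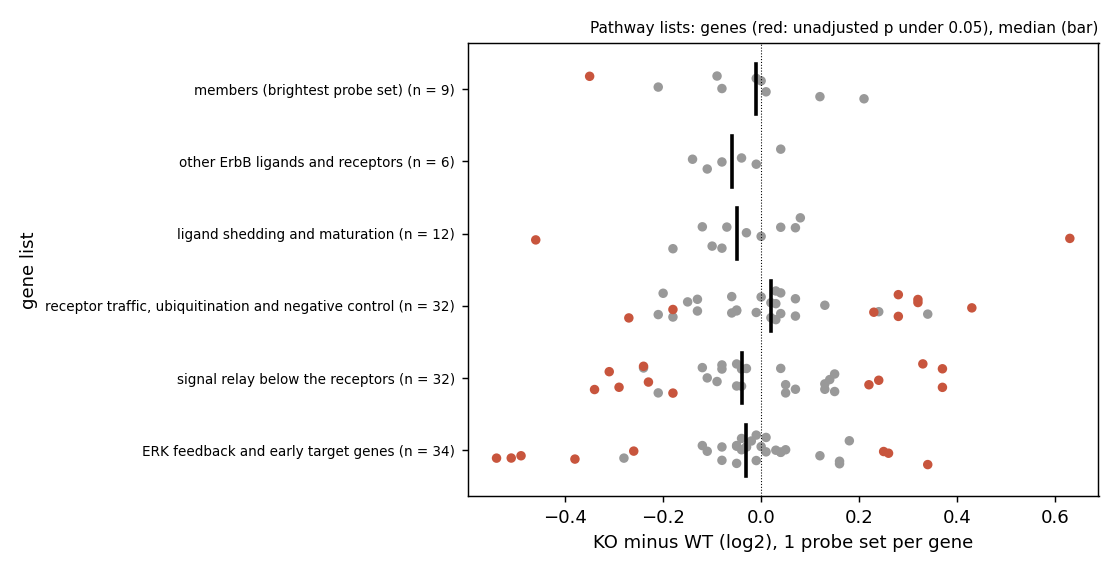
Each point is the KO minus WT log2 difference of 1 gene by its brightest probe set (horizontal axis), in rows for the 9 members measured and 5 lists of other pathway genes; red points have an unadjusted p under 0.05 and the black bar is the list median. All 6 medians lie between -0.06 and 0.02, and red points occur on both sides of 0 in the lists of shedding, receptor traffic, signal relay and ERK targets.

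Of the cell type lists, markers of deep crypt secretory and Paneth cells, a known source of EGF-family ligands in the crypt, had the largest median difference. Differences were positive for 9 of its 10 measured members, beside 6949 of all 17097 genes, and the median was 0.20. At an unadjusted p under 0.05 (limma) there were 3 (30.0%), all higher in KO, beside 9.61% of all genes (5.78% higher in KO). These were Mptx1 by 1.08 (SE 0.16, limma adjusted p = 0.334), Mmp7 by 0.21 (SE 0.09) and Kit by 0.10 (SE 0.04). None passed adjustment, and Kit lay among the lowest 25% by mean level. The list was chosen with earlier results of these data known, and these 3 genes were named after their values were seen. The counts are therefore a description and not a test of the list. Set against the mean of all arrays, the WT arrays stood at -0.42, -0.04, 0.01 and -0.19 on this list, while KO replicates 1 to 3 stood at 0.05, 0.29 and 0.30. Reg4 had a WT mean of 11.55 ± 0.41 (SD, n = 4) and a KO mean of 11.90 ± 0.43 (SD, n = 3), and Spink4 10.94 ± 0.59 and 11.55 ± 0.33. The Reg4 difference of 0.29 was 0.56 without KO replicate 1, 0.47 without WT replicate 2 and 0.086 without WT replicate 4, and that of Spink4, 0.53, was 0.33 without WT replicate 1; a fit that also held the Gapdh reading gave -0.10 and 0.14. Btc on 1421161_PM_at was highest in WT replicate 1 (8.61), the array with the lowest list mean. It was nearly as high in KO replicate 1 (8.54), where the list mean was 0.05. With scan batch in the fit the 2 Btc probe sets differed by 0.21 and 0.23, and the dim Egf by -0.09. The part of these cells in the ligand readings was not tested.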

How the data were processed

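Epcam- and Tomato-positive cells of colon adenomas were profiled on 7 Affymetrix mouse arrays, 4 WT and 3 KO; per the labels' protocols RNA of 2000 cells was amplified over 24 cycles. Each probe set has a deposited log2 level on each array, which the authors obtained by RMA, per the submitters' processing notes; version, filters and whether batches were corrected are not stated there. RMA can give several arrays the same value, which makes the spread of dim probe sets look small.

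Groups and scan batch come from the labels; 2 WT arrays were scanned with KO replicate 1, and the other 4 arrays, 2 per genotype, in scan batch 2. All 45037 non-control probe sets were fitted in limma (version 3.58.1, R version 4.3.3; lmFit, then eBayes with its trend option) with genotype and scan batch, two-sided, with Benjamini-Hochberg adjustment at 0.05, leaving 4 residual degrees of freedom. The median SE was 0.081. Exact permutation tests used the 35 splits of the arrays and the 18 that keep scan batch. The fit was run on simulated data with independent normal noise, which need not match these arrays.

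The platform annotation paired 28898 probe sets with 1 symbol (17097 genes); for lists the probe set with the highest mean stood for its gene. Of 209 genes on 10 lists 187 were measured and the rest not analysed here. Named by rule are all members, Mex3a and the other ErbB ligands and receptors. The rule also names the 3 genes of smallest p in each further pathway list and the 2 brightest of each cell type list. Ptprc, Mptx1, Mmp7, Kit and Cdh5 were named after their values were seen. The members and lists were chosen with earlier results of these data known. Alternatives were the scan batch term, each batch alone, level filters, the choice of probe sets, the variance trend, array weights, re-centring, repeated quantile normalization, the Gapdh covariate and leaving out each array.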

Additional observations from a re-analysis of the deposited data

Results flagged for a closer look

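Of 49 sets of 4 WT values checked, 5 held an array far from the other 3 by Dixon's criterion, and chance alone gives about 1 in 20. WT replicate 3 was such an array for Erbb2 (8.39, the other WT arrays between 7.99 and 8.06), for Erbb3 on 1434606_PM_at (9.53, the others at 9.33) and for Erbb3 on 1452482_PM_at (9.17, the others between 8.77 and 8.80). The Erbb3 probe sets measure the same gene on the same arrays and are not separate evidence. WT replicate 1 was flagged for the dim ligand gene Epgn (5.02, the others all at 4.97). Because the other WT values there were equal, any gap is flagged, so this flag says little about the array. WT replicate 2 stood apart for the early gene Klf10 (10.06, the others between 9.54 and 9.62).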

How the results depend on the processing

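Over 316 values of the 19 member probe sets under the alternatives, 0 had an adjusted p under 0.05 in limma (0.058 to 1.0), and 47 changed sign. Tgfa on 1421942_PM_s_at kept its direction throughout, from -0.42 to -0.25, and its smallest adjusted p in limma, 0.058, came with array weights. The mean of the Tgfa probe sets gave -0.18. No paired analysis was possible because the labels give no number that is shared between WT and KO arrays. Non-overlap was not counted within 1 scan batch. In scan batch 1 alone, with its 1 KO array assumed to vary like the others, the sign turned for Hbegf (-0.55 and -0.45), Egfr (0.17 on 1432647_PM_at, -0.24 on 1451530_PM_at, 0.059 on 1454313_PM_at), Erbb2 (0.023), Erbb3 (0.17 on 1434606_PM_at), Nrg4 (0.036), Erbb4 (0.014), Reg4 (-0.12), Lcp1 (1.12), Acta2 (-0.31) and Uchl1 (0.055). In scan batch 2 alone it turned for Tgfa (-0.049 on 1421943_PM_at), Egfr (-0.014 on 1435888_PM_at), Epgn (-0.042), Krt19 (0.069) and Cd68 (0.25). With no term for scan batch it turned for Egfr (0.025 on 1432647_PM_at, -0.0026 on 1435888_PM_at) and Krt19 (0.02). With the Gapdh difference it turned for Hbegf (-0.34 and -0.45), Egfr (0.12 on 1432647_PM_at, 0.022 on 1454313_PM_at), Erbb3 (0.081 on 1434606_PM_at), Errfi1 (-0.018), Reg4 (-0.10), Lcp1 (0.88) and Uchl1 (0.18). With array weights it turned for Ereg (-0.0094), Tgfa (-0.058 on 1421943_PM_at), Egfr (-0.0086 on 1435888_PM_at), Epgn (-0.016), Krt19 (0.045) and Cd68 (0.13). Re-centring gave 0.00595 for Egfr 1432647_PM_at and 0.0058 for Erbb3 1434606_PM_at. Repeated quantile normalization gave -0.014 for Hbegf 1418350_PM_at, 0.011 and -0.0068 for Egfr 1432647_PM_at and 1451530_PM_at, and 0.0037 for Nrg4. The mean of its probe sets gave 0.0048 for Eng.

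With 1 array left out, the sign turned at least once for Ereg (-0.0102 to 0.011), Hbegf 1418349_PM_at (-0.18 to 0.541), Hbegf 1418350_PM_at (-0.24 to 0.325), Tgfa 1421943_PM_at (-0.049 to 0.0994), Egfr 1432647_PM_at (-0.126 to 0.0707), Egfr 1435888_PM_at (-0.0143 to 0.0329), Egfr 1451530_PM_at (-0.0817 to 0.183), Erbb2 (-0.152 to 0.0212), Erbb3 1434606_PM_at (-0.123 to 0.0745), Epgn (-0.0423 to 0.0595), Nrg4 (-0.0476 to 0.0263), Krt19 (-0.0682 to 0.0688), Cd68 (-0.195 to 0.248), Lcp1 (-0.808 to 0.501) and Acta2 (-0.172 to 0.369). The cause was not tested.

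Counts at an unadjusted p under 0.05 also moved. For member probe sets the count of 2 became 1 with no term for scan batch, in either scan batch alone and after re-centring, and 1 to 3 with 1 array left out; non-overlapping ones numbered 1 to 3. Over all probe sets 4231 became 2636 with no term for scan batch, 8699 in scan batch 2, 2403 in scan batch 1, 10866 with array weights and 2273 to 7589 with 1 array left out. Non-overlapping probe sets, 2233 in all, numbered 3072 to 7635 with 1 array left out, since fewer arrays leave less room for overlap, and 0 to 1 probe set then passed adjustment, the 1 without WT replicate 4. For the other ErbB genes the count of 0 became 2 in scan batch 2 and with array weights, and 0 to 1 with 1 array left out. For shedding, 2 became 1 in scan batch 1 and with the Gapdh difference, 4 with array weights, and 1 to 3 with 1 array left out. For receptor traffic, 8 became 2 with no term for scan batch, 3 in scan batch 1, 4 with the Gapdh difference, and 2 to 12 with 1 array left out. For signal relay, 11 became 7 with no term for scan batch, 1 in scan batch 1, 17 with array weights, 4 with the Gapdh difference and with the mean of probe sets, and 4 to 15 with 1 array left out; its median of -0.041 lay between -0.058 and -0.0063. For ERK targets, 8 became 4 in scan batch 1, 3 with the Gapdh difference, and 2 to 8 with 1 array left out. The number of arrays and dim probe sets (Egf, Ereg) limit what could be seen.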

Other observations

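The brightest other markers of leukocytes, muscle, vessels and nerves did not pass between genotypes. Acta2 differed by 0.10 (SE 0.28) and the leukocyte markers Cd68 and Lcp1 by -0.04 (SE 0.17) and -0.04 (SE 0.53). Lcp1 varied most of these, from 5.92 to 7.89 in WT and from 6.36 to 7.78 in KO. The endothelial gene Eng differed by -0.02 (SE 0.07) and the neuronal gene Uchl1 by -0.25 (SE 0.27). Cdh5, another endothelial gene of that list, differed by -0.41 (SE 0.10, limma adjusted p = 0.458, exact permutation p = 0.0286). Every KO array lay below every WT array for Cdh5. Of the 12 measured genes of the list 10 had negative differences, beside 10148 of all 17097 genes. Cdh5 alone had an unadjusted p under 0.05 in limma (8.33% of the list, beside 9.61% of all genes).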
